A study of Mus musculus with 8 samples.

Results

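Transcripts of 32 genes used as macrophage markers were followed in cultures of primary mouse embryonic fibroblasts (MEFs), the mixed adherent cells grown out of embryos. The 32 genes were chosen by name, with earlier results of these data known, and matched by symbol to 45706 gene rows of a count table. Of these, 31 had at least 10 counts in some library, 30 passed the filter for testing (at least 10 counts in at least 2 libraries), and F13a1 was not measured. The measured molecule was chromatin-associated RNA, the RNA that stays with chromatin and is rich in transcripts still being made. The cultures were crel-/-rela-/- (KO), which lack cRel and RelA, NF-kB subunits that activate transcription, or WT. Both were C57BL/6, grown in 10% calf serum and starved overnight in 0.5% serum. Each genotype was sampled without TNF (0 min) and after 15, 45 and 60 min of tumour necrosis factor (TNF) at 10 ng/ml, which activates NF-kB. There was 1 library per genotype and time, 8 in all, with no replicates and no culture left untreated for 15, 45 or 60 min. Nothing in the labels says how many embryos or cultures the libraries came from, so genotype and culture cannot be told apart.

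Macrophages are phagocytes of the innate immune system that settle in most tissues of the embryo before birth, so fibroblast cultures made from whole embryos can carry some along. The transcription factor PU.1, encoded by Spi1, drives the myeloid programme, and the receptor encoded by Csf1r keeps macrophages alive when it binds CSF1, which fibroblasts secrete. Macrophages take up debris and pathogens through scavenger, Fc and complement receptors, digest them in lysosomes, and sense microbes through receptors that signal to NF-kB. The 3 genes taken as defining were Ptprc (CD45, the phosphatase on nucleated blood cells), Csf1r and Mrc1 (the mannose receptor of tissue macrophages).

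The libraries held 12359817 to 15607331 counts, of which 58.9% to 70.6% fell on 3 gene models (Gm26917, Gm42418 and Malat1). In the KO libraries Rela had 241 to 324 counts and Rel 308 to 633, against 324 to 704 and 151 to 805 in WT. Which exons the deletions removed is not stated in the labels, so whole-gene counts cannot check the genotypes. Levels are in CPM, counts per 1000000 of the TMM-scaled library size. A count of 0 allows up to 3 counts, or 0.179 to 0.265 CPM by library. The KO library at 0 min stood apart in cartilage and epithelial markers, whose values are given with the other cell type lists.

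Transcripts of the 31 measured macrophage genes were present in every WT library. In KO libraries, those other than Cd68 and Fcer1g had at most 28 counts (Stab1) and mostly fewer than 10. Summed over the 32 genes, KO libraries had 14.3, 13.1, 10.8 and 10.1 CPM at 0, 15, 45 and 60 min, and WT libraries 240.2, 230.5, 247.3 and 190.0 CPM. In counts, 658 stood against 12896, which put KO at 5.36% of WT (95% exact interval 4.95 to 5.80, counting error only). Most of the KO counts belonged to 2 genes, Cd68 and Fcer1g. Without them the KO libraries summed to 7.65, 5.38, 4.45 and 2.55 CPM, against 229.5, 219.7, 238.3 and 182.7 CPM in WT. KO was then at 2.37% of WT (2.10 to 2.67), or 42.2-fold lower. The gap was present before TNF was added. In a bulk library fewer macrophages and less RNA per macrophage cannot be told apart.

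**Figure D1:**
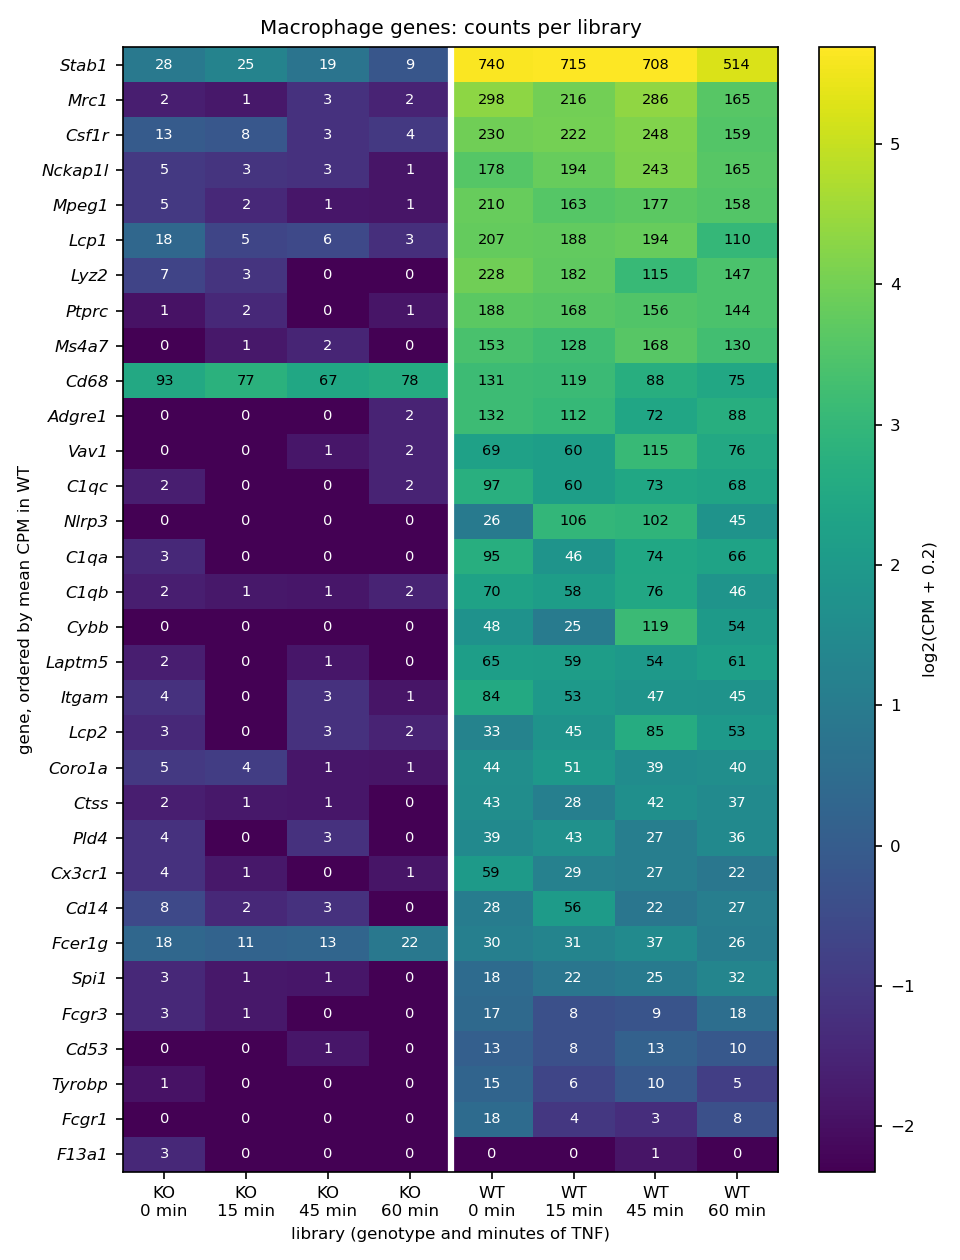
Counts of the 32 macrophage genes (rows, ordered by mean CPM in WT) in each library (columns, genotype and minutes of TNF). Numbers are raw counts and colour is log2(CPM + 0.2). In the 4 KO libraries Cd68 is the brightest row and no other row has more than 28 counts (Stab1), while the WT libraries reach 740 counts in Stab1.

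Gene by gene, every KO library lay below every WT library for 30 of the 32 genes, the exceptions being Cd68 and F13a1. Among all 15049 tested genes 7.75% showed this separation. None of the 32 had every KO library above every WT library, as 5.84% of tested genes did. In the test over all 8 libraries with time as a factor, 29 of the 30 tested macrophage genes were lower in KO and 0 higher (p from edgeR's quasi-likelihood F test under 0.05 after Benjamini-Hochberg adjustment over all genes). Of all tested genes 9.44% were lower and 6.81% higher, that is 1421 and 1025, or 2898 and 477 with total counts as the scale. A caveat on that count is that all 30 reached the filter in the WT libraries taken alone, but only 3 (Fcer1g, Cd68 and Stab1) did so in the KO libraries alone. Genes admitted through WT alone had to differ, so the count describes these genes and tests nothing about them as a group. At single times, 24, 26, 26 and 25 of the 32 genes were at least 2-fold lower in KO at 0, 15, 45 and 60 min, with at least 20 counts in the higher library and an interval clear of no difference. Of all tested genes 3.37%, 3.44%, 5.58% and 5.7% met the same conditions. None of the 32 was at least 2-fold higher in KO at any time, where 1.91%, 1.83%, 2.75% and 2.43% of tested genes were.

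Receptors that identify macrophages were read in WT and nearly absent from KO. Ptprc (chromosome 1, 138062861 to 138175708, mm10) had 1, 2, 0 and 1 counts in KO at 0, 15, 45 and 60 min, against 188, 168, 156 and 144 in WT. Csf1r (chromosome 18, 61105572 to 61132149) had 13, 8, 3 and 4 counts in KO and 230, 222, 248 and 159 in WT. Mrc1 (chromosome 2, 14229392 to 14332057) had 2, 1, 3 and 2 counts in KO and 298, 216, 286 and 165 in WT. All 3 defining markers were thus read in every WT library, at more than 100 counts each, and were at or near 0 in KO for Ptprc and Mrc1. Csf1r kept a few counts in each KO library, and 17.8% of its exon length overlaps exons of Hmgxb3 on the opposite strand. Whether the counting used strand is not stated in the sources, so reads of both genes cannot be told apart there. The fitted log2 fold changes of KO over WT were -7.12 ± 0.30 (SE) for Ptprc (adjusted p = 5.53e-07), -4.85 ± 0.23 for Csf1r (adjusted p = 1.26e-06) and -6.76 ± 0.21 for Mrc1 (adjusted p = 7.12e-08).

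Adgre1 encodes F4/80, the classical surface antigen of mouse macrophages. KO libraries had 0, 0, 0 and 2 of its counts, and WT libraries 132, 112, 72 and 88. From summed counts it was 192-fold lower in KO, with a counting interval of 52.9 to 1593. Itgam encodes CD11b, the alpha chain of complement receptor 3. It had 4, 0, 3 and 1 counts in KO, against 84, 53, 47 and 45 in WT, with a log2 fold change of -4.73 ± 0.38 (adjusted p = 3.75e-05). Cx3cr1, the fractalkine receptor of microglia and other resident macrophages, had 4, 1, 0 and 1 counts in KO and 59, 29, 27 and 22 in WT (-4.41 ± 0.41, adjusted p = 9.02e-05). In Cx3cr1 the WT library at 0 min was the highest of all. Ms4a7, a membrane protein of mature macrophages, had 0, 1, 2 and 0 counts in KO and 153, 128, 168 and 130 in WT, a ratio of summed counts of 184-fold (62.5 to 893). Cd53, a tetraspanin of white blood cells, was low throughout, with 0, 0, 1 and 0 counts in KO and 13, 8, 13 and 10 in WT. No library of either genotype crossed into the range of the other for these 5 genes.

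Spi1 (chromosome 2, 91082390 to 91115756), the gene of PU.1 itself, had 3, 1, 1 and 0 counts in KO, against 18, 22, 25 and 32 in WT. Its log2 fold change was -4.06 ± 0.52 (adjusted p = 0.000557). PU.1 binds purine-rich sites with a GGAA core, and many macrophage promoters carry them. The letters GAGGAAG were searched on both strands of promoter windows that run from 250 bases before to 50 bases after a gene start (RefSeq, GRCm38.p6). Windows were held for 25 of the 32 genes, 32 windows in all, since some genes have several starts. The letters stood in 14 of them, or 43.75%, from 12 genes, and in 13.6% of all 32851 windows. Overlapping windows of Fcgr3 share the same match, which is counted in each. A match of letters is a description and not a bound site. F13a1, which was not measured in either genotype, is among the 12 genes and has a window with 2 matches. The windows of the mannose receptor and CD11b genes are shown because these genes are read in WT and each window holds 2 matches, written in capitals (as GAGGAAG, or as CTTCCTC where the match is on the other strand). In Mrc1 (chr2:14229164-14229463, plus strand) the matches begin 168 and 36 bases before the gene start, and in Itgam (chr7:128062390-128062689, plus strand) 84 bases before and 31 bases after it.
Mrc1: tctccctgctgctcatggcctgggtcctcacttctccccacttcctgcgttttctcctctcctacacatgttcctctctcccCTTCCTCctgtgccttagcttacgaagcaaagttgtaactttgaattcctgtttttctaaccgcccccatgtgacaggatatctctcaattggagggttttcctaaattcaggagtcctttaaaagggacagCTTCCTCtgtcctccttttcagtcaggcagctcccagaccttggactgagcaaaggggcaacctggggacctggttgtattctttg
Itgam: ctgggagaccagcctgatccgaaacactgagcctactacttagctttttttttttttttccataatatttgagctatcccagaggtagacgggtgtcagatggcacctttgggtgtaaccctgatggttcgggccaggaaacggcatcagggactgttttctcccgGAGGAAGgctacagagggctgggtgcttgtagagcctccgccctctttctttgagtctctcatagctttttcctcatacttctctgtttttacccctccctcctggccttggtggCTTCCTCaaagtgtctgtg

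Genes of uptake and digestion included the one with the most counts in WT. Stab1 (chromosome 14, 31139013 to 31168641) encodes stabilin-1, a scavenger receptor of tissue macrophages that sinusoidal endothelium also makes. It had 28, 25, 19 and 9 counts in KO, against 740, 715, 708 and 514 in WT, with a log2 fold change of -4.98 ± 0.16 (adjusted p = 7.12e-08). Stab1 alone made up 19.5% to 22.3% of the summed macrophage counts in the WT libraries, and without it as well as Cd68 and Fcer1g, KO was at 2.15% of WT. Lyz2, the lysozyme of myeloid cells, had 7, 3, 0 and 0 counts in KO and 228, 182, 115 and 147 in WT (-5.98 ± 0.34, adjusted p = 5.28e-06). Mpeg1, which encodes the pore-forming perforin-2, had 5, 2, 1 and 1 counts in KO and 210, 163, 177 and 158 in WT (-6.17 ± 0.24, adjusted p = 4.71e-07). Lyz2 was the only one of these 3 without a count in the KO libraries at 45 and 60 min. The lysosomal protease gene Ctss had 2, 1, 1 and 0 counts in KO and 43, 28, 42 and 37 in WT. Pld4, a nuclease of endosomes, had 4, 0, 3 and 0 counts in KO and 39, 43, 27 and 36 in WT. Laptm5, a lysosomal membrane protein of blood cells, had 2, 0, 1 and 0 counts in KO and 65, 59, 54 and 61 in WT. Ctss and Pld4 were lower in KO by fitted log2 changes of -5.01 ± 0.43 and -4.22 ± 0.51, and Laptm5 was lower by a ratio of 75.8-fold (25.6 to 370).

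The chains of C1q, the recognition unit of the classical complement pathway, lie side by side on chromosome 4 and are made in tissues mainly by macrophages. C1qa had 3, 0, 0 and 0 counts in KO and 95, 46, 74 and 66 in WT. C1qb had 2, 1, 1 and 2 counts in KO and 70, 58, 76 and 46 in WT. C1qc had 2, 0, 0 and 2 counts in KO and 97, 60, 73 and 68 in WT. All 3 chains were present in each WT library and had at most 3 counts in any KO library. C1qa was 89.1-fold lower by summed counts (30.2 to 435), and the fitted log2 fold changes were -5.20 ± 0.32 for C1qb (adjusted p = 7.99e-06) and -6.02 ± 0.39 for C1qc (adjusted p = 1.17e-05).

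Receptors for the Fc part of antibodies, and the signalling adaptors Tyrobp and Fcer1g, were at low counts. Fcgr3, a low-affinity IgG receptor, had 3, 1, 0 and 0 counts in KO and 17, 8, 9 and 18 in WT (-3.54 ± 0.62, adjusted p = 0.00387). Fcgr1, the high-affinity IgG receptor, had no count in KO and 18, 4, 3 and 8 in WT. It passed 10 counts in 1 library and was not tested. The exact interval for counting error put Fcgr1 at least 8.05-fold lower in KO. With KO set at a floor of 3 counts over the 4 KO libraries, the ratio was 10.5-fold. Tyrobp, the adaptor DAP12, had 1, 0, 0 and 0 counts in KO and 15, 6, 10 and 5 in WT, and its ratio of 34.3-fold carries an interval of 5.77 to 1390. The shared gamma chain, Fcer1g, did not follow its receptors.

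Fcer1g (chromosome 1, 171229572 to 171234365) and Cd68 (chromosome 11, 69664213 to 69666153) were the measured genes whose KO level came nearest to WT. Fcer1g had 18, 11, 13 and 22 counts in KO and 30, 31, 37 and 26 in WT, so KO was at 54.2% of WT (39.5 to 73.9). Its log2 fold change of -0.88 ± 0.26 was just past the threshold (adjusted p = 0.0440). The call was lost in 9 of 17 alternatives, among them DESeq2 (adjusted p = 0.205) and leaving out either genotype's library of 0, 15 or 45 min (adjusted p from 0.0869 to 0.196). At 60 min the KO and WT counts of Fcer1g differed by a log2 ratio of -0.19 (-1.07 to 0.69). Cd68, a lysosomal glycoprotein long used as a macrophage stain but made at some level by many cell types, had 93, 77, 67 and 78 counts in KO and 131, 119, 88 and 75 in WT. The ranges overlapped, KO was at 80.2% of WT (69.0 to 93.0), and the log2 fold change of -0.29 ± 0.15 was not past the threshold (adjusted p = 0.209). It passed in 2 of 17 alternatives, with total counts as the scale (-0.47, adjusted p = 0.0452) and with the 0 and 15 min libraries alone (-0.50, adjusted p = 0.0363). No annotated exon of another gene overlaps either gene.

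**Figure D2:**
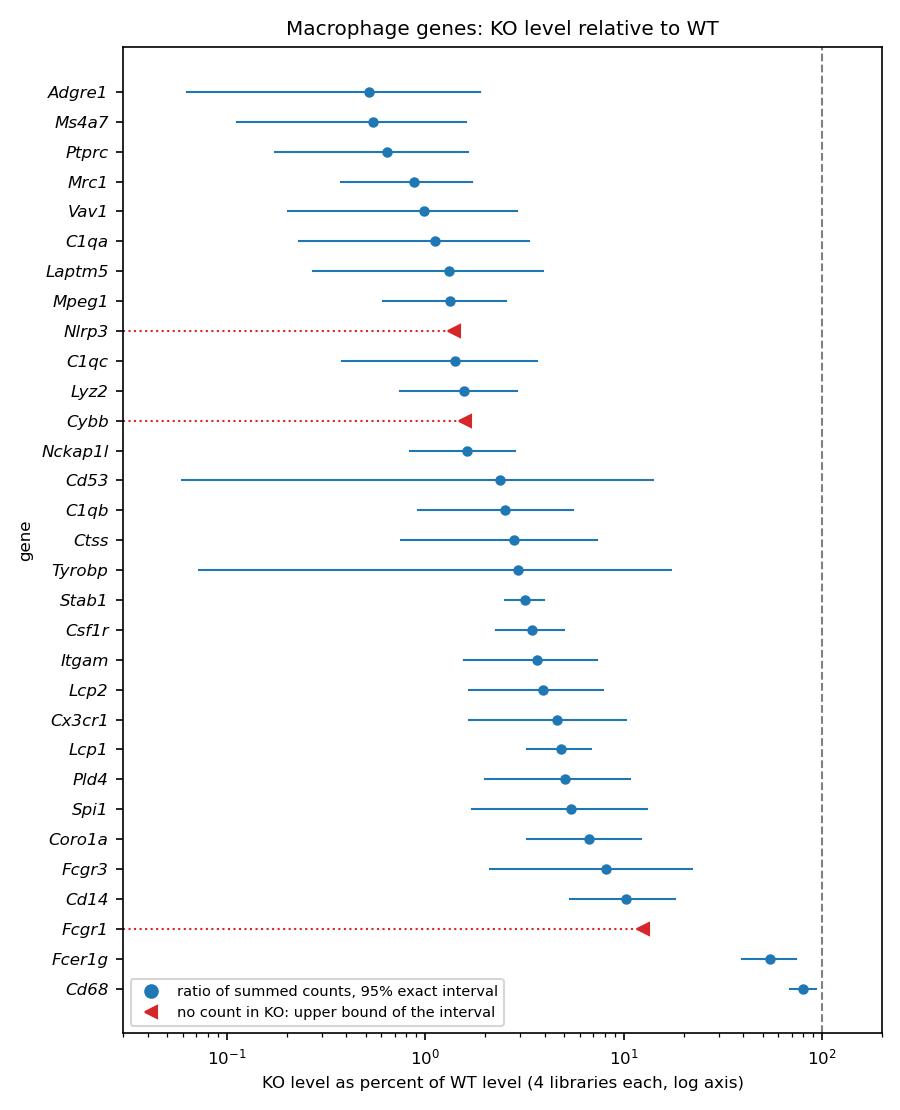
Level in KO as a percentage of the level in WT for the 31 measured genes (log axis), from counts summed over 4 libraries per genotype. Points are ratios with 95% exact intervals for counting error, and red arrowheads mark the upper bound for the 3 genes without a count in KO. Cd68 at 80.2% and Fcer1g at 54.2% stand to the right of the others, which run from 0.520% for Adgre1 to 10.3% for Cd14.

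Genes of signalling and of the actin cytoskeleton in blood cells differed in the same direction. Nckap1l, the blood cell form of a subunit of the WAVE complex, had 5, 3, 3 and 1 counts in KO and 178, 194, 243 and 165 in WT (-5.88 ± 0.22, adjusted p = 4.03e-07). Lcp1, the actin bundler L-plastin, had 18, 5, 6 and 3 counts in KO and 207, 188, 194 and 110 in WT (-4.40 ± 0.23, adjusted p = 2.42e-06). Coro1a, an actin-binding coronin, had 5, 4, 1 and 1 counts in KO and 44, 51, 39 and 40 in WT (-3.86 ± 0.35, adjusted p = 7.59e-05). Lcp1 was highest among the KO libraries at 0 min, and 5.58% of its exon length overlaps other gene models. Vav1, a signalling protein of blood cells, had 0, 0, 1 and 2 counts in KO and 69, 60, 115 and 76 in WT, a ratio of 101-fold (34.4 to 495). Lcp2 (chromosome 11, 34046920 to 34092295), the adaptor SLP-76, had 3, 0, 3 and 2 counts in KO and 33, 45, 85 and 53 in WT (-4.57 ± 0.37, adjusted p = 4.27e-05). In both Vav1 and Lcp2 the WT library at 45 min was the highest.

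Of the innate sensors and effectors, Cybb and Nlrp3 had no count in any KO library. Cybb (chromosome X, 9435252 to 9487771) encodes gp91phox, the catalytic subunit of the phagocyte NADPH oxidase, and had 48, 25, 119 and 54 counts in WT. Nlrp3 (chromosome 11, 59541568 to 59566956) encodes the sensor of an inflammasome, which activates caspase-1, and had 26, 106, 102 and 45 counts in WT. By the exact interval for counting error, Cybb was at least 63.0-fold and Nlrp3 at least 71.5-fold lower in KO (edgeR adjusted p = 9.89e-05 and 7.96e-05). With KO set at the floor of 3 counts over the 4 KO libraries, the ratios were 78.0-fold and 88.5-fold. Cd14 (chromosome 18, 36725074 to 36726736), the coreceptor for bacterial lipopolysaccharide, had 8, 2, 3 and 0 counts in KO and 28, 56, 22 and 27 in WT (-3.21 ± 0.48, adjusted p = 0.00152). At 10.3% of WT it was the least reduced of the genes called lower in every alternative. F13a1, the coagulation factor XIII subunit of some tissue macrophages, had 3, 0, 0 and 0 counts in KO and 0, 0, 1 and 0 in WT, under 10 counts everywhere.

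Between genes, levels are compared per kilobase of exon. Among the WT libraries Lyz2 led with a mean of 9.31 CPM per kilobase (6.50 to 12.0 over the 4 libraries), followed by Cd68 at 5.77 (4.31 to 6.94), C1qa at 4.74 (3.18 to 6.08), Stab1 at 4.58 (3.61 to 5.00) and C1qb at 4.04 (3.05 to 5.00). Ptprc was at 0.630 (0.568 to 0.684), and Fcgr3 at 0.526, Cd53 at 0.444 and Fcgr1 at 0.220 CPM per kilobase closed the order of the 31 measured genes. The ranges of every pair of neighbours in that order overlapped, so ranks next to each other are not separated. In KO the order was another one, with Cd68 at 4.68 and Fcer1g at 1.35 CPM per kilobase and no other gene above 0.147.

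Within WT cultures no macrophage gene passed the test for a late change after TNF, while single libraries differed from 0 min for some genes. A late state, made of the libraries at 45 and 60 min, was set against 0 min in 1 fit over all 8 libraries, so that both times stand in for replicates. None of the 30 genes was called (edgeR), where 4.17% of all tested genes rose and 1.31% fell (628 and 197 genes, or 304 and 280 with total counts as the scale). At an unadjusted p under 0.05 there were 6 (Nlrp3, Lcp2, Cx3cr1, Lyz2, Cd68 and Itgam), with 0 calls by DESeq2 (0 at an unadjusted p under 0.05) and 0 by limma-voom (7 unadjusted). The median log2 change of the 30 was -0.13, against -0.0039 over all tested genes. In simulated counts the same contrast recovered 50.8% of genes changed 2-fold and 89.2% of genes changed 4-fold, so changes near 2-fold could be missed. Those genes were drawn from all tested genes and changed alike at 45 and 60 min. The rates need not hold for macrophage genes with few counts or a change at 1 time, where larger changes could be missed too.

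Nlrp3 gave the highest ratio to 0 min. Its 106 and 102 counts at 15 and 45 min stood against 26 at 0 min, log2 ratios of 2.14 (1.51 to 2.82) and 2.08 (1.44 to 2.76), and at 60 min the ratio was 0.91 (0.18 to 1.66). The fitted late change was 1.60 ± 0.50 with an adjusted p of 0.0988. Leaving out the WT library of 60 min, Nlrp3 was at 2.06 (adjusted p = 0.000613). With the 15 min library as baseline it was at -0.53, since the level at 15 min was already high. Adjusted p ran from 0.000613 to 1.00 over 15 alternatives. Relative to the sum of the other macrophage genes in the same library, a measure that needs no scaling of libraries, Nlrp3 was at log2 ratios of 2.24, 2.07 and 1.26 to 0 min.

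Nlrp3 has several annotated starts, and 2 promoter windows are shown because the 10-base NF-kB consensus and the PU.1 letters fall in different ones. The NF-kB consensus was found in 4 of the 32 windows, or 12.5%, from C1qc, Fcgr3 and Nlrp3, and in 5.80% of all windows. Fcgr3 has overlapping windows that hold the same match, which is counted in each. In the first Nlrp3 window (chr11:59541319-59541618, plus strand) the match begins 186 bases before the start, is written in capitals and reads as a match on both strands. In the second (chr11:59542436-59542735, plus strand) the capitals mark PU.1 letters 130 and 36 bases before the start. Which start was used is not shown by gene-level counts.
Nlrp3, first window: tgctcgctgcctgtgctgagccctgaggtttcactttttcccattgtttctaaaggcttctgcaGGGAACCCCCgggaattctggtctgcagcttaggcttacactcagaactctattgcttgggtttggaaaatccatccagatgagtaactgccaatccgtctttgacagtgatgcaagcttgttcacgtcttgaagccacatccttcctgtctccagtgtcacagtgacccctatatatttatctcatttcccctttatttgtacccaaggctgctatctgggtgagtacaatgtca
Nlrp3, second window: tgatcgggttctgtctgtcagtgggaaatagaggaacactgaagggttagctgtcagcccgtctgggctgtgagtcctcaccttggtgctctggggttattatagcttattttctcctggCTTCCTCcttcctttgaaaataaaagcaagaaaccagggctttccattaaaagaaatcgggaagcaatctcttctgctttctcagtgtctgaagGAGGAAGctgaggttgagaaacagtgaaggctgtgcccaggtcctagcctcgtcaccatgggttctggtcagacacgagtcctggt

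Further genes were higher or lower in single WT libraries, where at least 2-fold with at least 20 counts in the higher library and an interval clear of no difference is again the limit for counting. Cd14 had 56 counts at 15 min against 28 at 0 min, a log2 ratio of 1.11 (0.43 to 1.82), and was then at -0.24 and 0.06. Cybb was at -0.83 (-1.59 to -0.10) at 15 min, 1.41 (0.92 to 1.93) at 45 min and 0.29 (-0.30 to 0.88) at 60 min. Lcp2 was at 0.56, 1.47 (0.87 to 2.10) and 0.80, and Vav1 at 0.84 at 45 min. Cd14 and Nlrp3 were thus the genes at least 2-fold higher at 15 min, and Nlrp3, Cybb and Lcp2 those at 45 min, with none at 60 min. Cx3cr1 went the other way, with log2 ratios of -0.91, -1.02 (-1.74 to -0.34) and -1.31 (-2.08 to -0.58), and was the gene at least 2-fold lower at both late times. Fcgr1, at log2 ratios of -2.06 (-4.08 to -0.46) and -2.48 (-4.89 to -0.70) at 15 and 45 min, was the lowest but had 18 counts or fewer and is not counted. At 45 min Lyz2 was at -0.88 (-1.22 to -0.55), Adgre1 at -0.77 (-1.21 to -0.35) and Itgam at -0.73 (-1.28 to -0.20), short of 2-fold. At 15 min 2 genes were thus higher and 0 lower, against 0.857% and 1.19% of all tested genes. The later libraries had 3 higher and 1 lower at 45 min (4.13% and 2.84% of tested genes) and 0 higher and 1 lower at 60 min (5.01% and 3.35%). With total counts as the scale the balance turned: 1 gene was higher and 3 lower at 15 min, with Cd14 at 0.77 no longer counted, and 3 were higher and 4 lower at 45 min. Fitted late changes were 1.17 ± 0.40 for Lcp2 and -1.15 ± 0.39 for Cx3cr1 (adjusted p = 0.125 each) and 0.96 ± 0.46 for Cybb (adjusted p = 0.292). Without the WT library of 60 min, Cybb was at 1.40 (adjusted p = 0.0257) and Lcp2 at 1.46 (adjusted p = 0.0361).

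**Figure D3:**
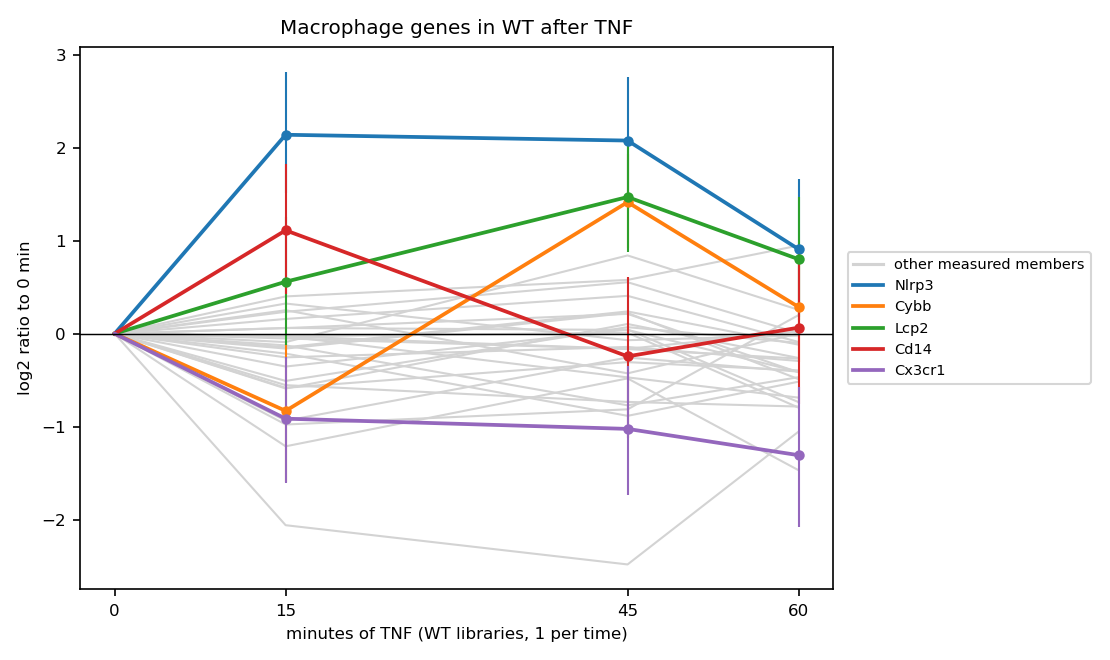
Log2 ratio of CPM to the 0 min library in WT (vertical axis) against minutes of TNF, 1 library per time, for the 31 measured genes. Coloured lines with 95% exact intervals mark the genes at least 2-fold off with 20 counts or more, and grey lines the others, where the lowest is Fcgr1 with 18 counts or fewer. Nlrp3 is at 2.14 at 15 min and Cybb at 1.41 at 45 min, while most grey lines lie near 0.

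As shares of the summed macrophage counts, Nlrp3 took 0.721%, 3.31%, 2.95% and 1.71% in WT at 0, 15, 45 and 60 min, Cybb 1.33%, 0.780%, 3.44% and 2.05%, and Lcp2 0.915%, 1.40%, 2.46% and 2.02%. Stab1 kept 20.5%, 22.3%, 20.5% and 19.5%. The median gene of the 31 measured was at log2 ratios to 0 min of -0.13, -0.07 and -0.27. Taken relative to the sum of the other macrophage genes, which needs no scale between libraries, 4, 5 and 6 of the 31 genes had an interval above 0 at 15, 45 and 60 min and 6, 6 and 3 below. Among the lower ones at 45 min were Lyz2 at -0.97 (-1.31 to -0.64), Adgre1 at -0.84 (-1.27 to -0.41) and Itgam at -0.79 (-1.34 to -0.26). These intervals cover only the counting error of single libraries, and some were barely clear of 0, as for Stab1 at 15 min (0.003 to 0.304). Each gene was set against a sum of the others, so the genes are not independent. No share over all genes stands beside these numbers, which only describe the 31 genes.

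In KO the response to TNF could hardly be measured, since 22 of the 32 genes had no count in at least 1 KO library. None of the 30 tested genes was called (edgeR, 4 at an unadjusted p under 0.05; DESeq2 0 and 3, limma-voom 0 and 4), where 1.32% of all tested genes rose and 0.518% fell. Lyz2, with 7, 3, 0 and 0 counts, had the smallest adjusted p at 0.0793, and Stab1, with 9 counts at 60 min against 28 at 0 min, was the gene at least 2-fold lower at 60 min (log2 ratio -1.31, -2.58 to -0.19), against 3.22% of tested genes. As in WT, counting a gene as 2-fold off needed at least 20 counts in the higher library and an interval clear of no difference. No other gene of the 32 met these conditions at a single time in KO. Of all tested genes 0.585%, 2.58% and 3.02% were higher at 15, 45 and 60 min, and 1.15% and 2.78% lower at 15 and 45 min. Lcp1, with 3 counts at 60 min against 18 at 0 min, was at -2.26 (-4.66 to -0.48) but had too few counts. The same held for Lyz2 at 45 and 60 min (0 counts against 7) and Cd14 at 60 min (0 against 8), whose intervals were clear of no difference. The difference between the responses, KO minus WT, was called for none of the 30 (edgeR, 2 at an unadjusted p under 0.05; DESeq2 0 and 1, limma-voom 0 and 2), with 0.00664% of all tested genes higher and 0.492% lower. Whether Nlrp3 and Cybb respond differently in KO is not detectable at this depth, with 0 counts in all 4 KO libraries.

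Most tested genes of a further myeloid list were lower in KO too, but the sum of that list was less reduced. Its 50 genes summed to 33.6 to 35.7 CPM in KO and 104.5 to 123.3 in WT, which put KO at 30.8% of WT. Of 50 other myeloid genes 29 were tested, and 27 were lower and 0 higher in KO, against 9.44% and 6.81% of all tested genes. Many of the 29 reached 10 counts only in WT libraries. The number called thus describes the genes and tests nothing about them as a group. The 4 with the smallest p were Fyb, an adaptor of immune cells (10, 2, 6 and 3 counts in KO, 106, 81, 115 and 89 in WT), Dock2, a Rac activator (0, 7, 4 and 5 against 214, 171, 219 and 192), Pirb, an inhibitory receptor, and C3ar1, the receptor for complement C3a. Mertk, which was not called and was picked out after its values were seen, is a receptor for dying cells. It had 311, 173, 180 and 200 counts in KO and 221, 198, 154 and 108 in WT (0.43 ± 0.13, adjusted p = 0.0543, and 0.0452 or 0.0461 without the KO or the WT library of 15 min). None of the 29 was called in the late WT response.

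Inflammatory genes that macrophages make, many of them known NF-kB targets, were counted as a further list. Of 22 such genes 11 were tested. In KO against WT, 10 were lower and 1, Ptgs2 (cyclooxygenase-2), was higher (0.68 ± 0.14, adjusted p = 0.00875). Of all tested genes 9.44% were lower and 6.81% higher, and many of the 11 reached 10 counts only in WT libraries. Tnf had 0, 1, 0 and 0 counts in KO and 13, 91, 53 and 30 in WT. Tlr2, a receptor for bacterial lipoproteins, had 16, 2, 9 and 8 counts in KO and 47, 111, 286 and 272 in WT, and Cd40, a costimulatory receptor, had 10, 9, 3 and 4 in KO and 20, 25, 123 and 171 in WT. The median late log2 change of the 11 in WT was 1.77, and 4 of them rose, where 4.17% of all tested genes did. The other 7 were not called. Those that rose included Tlr2 by 2.68 ± 0.27 (adjusted p = 0.000101) and Cd40 by 2.98 ± 0.38 (adjusted p = 0.000695). Fibroblasts can make these products too, and which cells the transcripts came from was not tested. Csf1, the ligand of the Csf1r receptor and a fibroblast product, had 1106, 820, 1061 and 1063 counts in KO and 1254, 1455, 12164 and 13844 in WT. It rose late in WT by 3.48 ± 0.20 (adjusted p = 1.61e-06), while Csf1r in WT had 248 and 159 counts at 45 and 60 min against 230 at 0 min. Whether Csf1 bears on the level of the macrophage genes was not tested. The KO against WT call of Csf1 over all times (-1.99 ± 0.55, adjusted p = 0.0340) was lost in DESeq2 (adjusted p = 0.0905) and without the KO or WT library of 45 or 60 min (adjusted p from 0.0973 to 0.166).

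Markers of lymphocytes, neutrophils and mast cells had few counts in both genotypes. T and NK cell markers (10 genes) summed to 0.0750 to 0.717 CPM in KO and up to 0.573 in WT, with Cd3e, Cd3d and Cd3g at 0 counts in all 8 libraries. B cell markers reached at most 0.265 CPM in KO and 0.217 in WT, and neutrophil markers at most 0.0882 and 0.0722. Mast cell markers, in KO mostly Kit, summed to 0.375 to 1.08 CPM in KO and 0.216 to 0.578 in WT. No gene of these 4 lists reached the filter for testing. Of 6 osteoclast markers only the protease gene Ctsk was tested and it was lower in KO (-0.68 ± 0.16, adjusted p = 0.0158). Of 6 dendritic cell markers only Zbtb46 was tested, and of 9 megakaryocyte and erythroid markers only Itga2b, and neither was called in KO against WT (adjusted p = 0.345 and 0.462). Zbtb46 had 88, 48, 44 and 98 counts in KO and 57, 36, 133 and 224 in WT, and rose late in WT by 1.76 ± 0.42 (adjusted p = 0.0310), a call lost in DESeq2 (adjusted p = 0.0534), in limma-voom (adjusted p = 0.0509) and with no filter (adjusted p = 0.193). The lymphocyte, neutrophil and mast cell lists thus each summed to at most 8 counts in a WT library, where the macrophage genes summed to 2630 to 3606 counts.

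Fibroblast markers had similar sums, with 10 genes at 9793 to 13160 CPM in KO and 8922 to 11632 in WT. Of the 10, 1 was higher and 3 lower in KO, against 6.81% and 9.44% of all tested genes. The higher one was Fn1 (log2 change 0.28), and the lower ones were Pdgfra (-0.68), Col6a1 (-0.57) and Pdgfrb (-0.47). Endothelial markers summed to 9.80 to 15.7 CPM in KO and 4.19 to 6.11 in WT, mostly from the receptor genes Tek and Kdr. These 2 of the 3 tested were higher in KO by log2 changes of 1.44 ± 0.19 (adjusted p = 0.000734) and 1.19 ± 0.22 (adjusted p = 0.00520). The third, Egfl7, was not called (adjusted p = 0.592). Among those too low to test, Pecam1 had 8, 1, 4 and 1 counts in KO and 0, 1, 8 and 6 in WT. Cdh5 had 13, 1, 0 and 0 counts in KO and 0, 1, 0 and 0 in WT. Egfl7, Pecam1 and Cdh5 are named as exceptions, since their counts were low. Cartilage markers summed to 639, 247, 249 and 219 CPM in KO and 254, 200.4, 209 and 175 in WT, and epithelial markers to 14.0, 2.47, 4.29 and 2.93 in KO and 1.07, 1.22, 1.29 and 1.16 in WT. Over all times 4 of 5 tested cartilage genes and 2 of 2 tested epithelial genes were higher in KO, against 6.81% of all tested genes. Col2a1 had 5219, 91, 114 and 389 counts in KO and 27, 14, 15 and 17 in WT, so its difference was not confined to 0 min. The KO library of 0 min was the highest of the 8 in both lists. The macrophage genes other than Cd68 and Fcer1g had their highest KO sum, 7.65 CPM, in the same library. Without it, all tested macrophage genes but Cd68 and Fcer1g were still called lower, 28 in number. Whether the genes of these other lists bear on the macrophage gene differences was not tested.

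**Figure D4:**
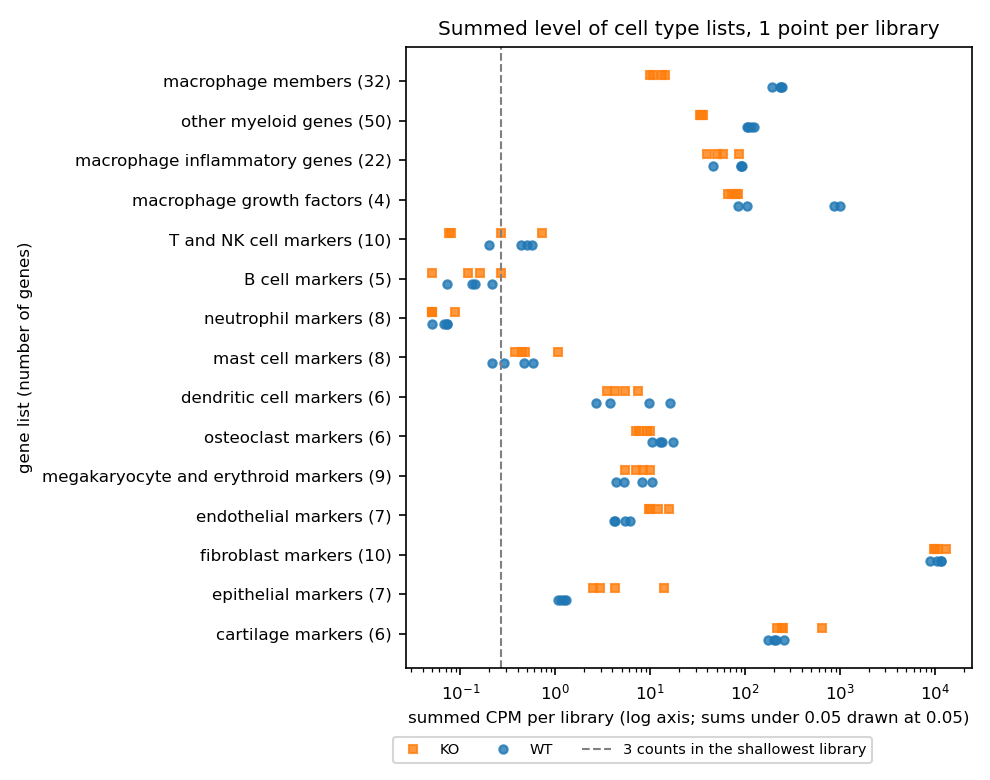
Summed CPM (log axis) of each cell type list in each library, with KO above WT within a row and the number of genes in brackets; the dashed line is 3 counts in the shallowest library. The macrophage genes lie at 10.1 to 14.3 CPM in KO and 190.0 to 247.3 in WT, while fibroblast markers overlap and B cell and neutrophil markers lie at or under the dashed line.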

How the data were processed

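Chromatin-associated RNA of MEF cultures was sequenced from 8 strand-marked libraries without ribosomal RNA as single-end 50-base reads, per the labels' protocols. The submitters' processing notes name cutadapt 1.12, STAR, featureCounts 1.5.0, DESeq2 and the build mm10. The table deposited by the authors holds raw counts, 1 column per library, per the file headers, and 98.77% of 45706 rows were given a symbol by identifier. Neither the strand setting nor the treatment of reads with several positions is stated in the sources, so overlapping genes are uncertain. Groups follow the labelled genotype and time. No pair was a duplicate (chi-square per degree of freedom 8.09 to 53.9).

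Counts were tested with edgeR 4.0.16 in R 4.3.3 (quasi-likelihood, TMM factors 0.818 to 1.21, Benjamini-Hochberg over 15049 genes, threshold 0.05). KO against WT had time as a factor and 3 residual degrees of freedom. Late responses came from 6 cell means with 2. The p-values measure only the spread between these libraries, which may be technical. Single libraries were compared by ratios with exact Clopper-Pearson intervals at 95%, which, like the floors of 3 counts, cover counting error only, since PCR reads are not independent molecules. A KO total of 1 to 3 counts is given as a ratio with its interval, not as a fitted change. On simulated counts for 14732 genes, KO against WT recovered 83.1% of 2-fold and 100% of 4-fold changes.

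The members, gene lists and tests were chosen with earlier results of these data known. Every member is accounted for, with counts per library for those called in any test or with a mean of at least 20 WT counts; from other lists at most 4 genes with the smallest p and a mean of at least 20 counts are named, and exceptions are said to be so. Alternatives were DESeq2 1.42.0, limma-voom (limma 3.58.1), RLE or total-count scaling, other filters, no time term, subsets of times, other baselines, and leaving out each library. Values of 1 gene of another list are not reported here.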

Additional observations from a re-analysis of the deposited data

Results flagged for a closer look

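The late response to TNF differed between the genotypes for 2 genes named beside the macrophage genes, by the test of the difference itself. The difference, KO minus WT, was -3.17 ± 0.25 on the log2 scale for Csf1 (edgeR adjusted p = 0.000103) and -3.21 ± 0.55 for Tlr2 (adjusted p = 0.0243). Csf1 had 1061 and 1063 counts at 45 and 60 min against 1106 at 0 min in KO, and 12164 and 13844 against 1254 in WT. Tlr2 had 9 and 8 counts against 16 in KO, and 286 and 272 against 47 in WT. The Tlr2 call rests on few KO counts and was lost without the KO library of 45 min (adjusted p = 0.0581) or of 60 min (adjusted p = 0.0605), in limma-voom (adjusted p = 0.0532), with no filter (adjusted p = 0.157) and with 0 and 15 min together as baseline (-1.81, adjusted p = 0.490). With 15 min as baseline the Tlr2 difference was at 0.51, where the KO library had 2 counts. No macrophage gene of the 32 was called in this test.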

How the results depend on the processing

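The calls in KO against WT held under 17 alternatives for every tested member other than Fcer1g and Cd68, wherever the gene passed the filter (Tyrobp and Fcgr3 in 12, Cd53 in 15). The 2 exceptions are given with their values in the results above. Among the other genes with printed changes, the KO against WT calls of Ptgs2 (adjusted p = 0.279) and Ctsk (adjusted p = 0.0536) were lost with no time term and those of Kdr (adjusted p = 0.0814) and Cd40 (adjusted p = 0.0645) with 0 and 15 min alone. Mertk passed with no filter (adjusted p = 0.00600), as did Zbtb46 (adjusted p = 0.0252). The only called value that changed sign was the Tlr2 difference between responses, at 0.51 with 15 min as baseline. The late WT response held 0 higher members in most settings, 0 to 3 on leaving out 1 library each, with 3 without the WT library of 60 min (Nlrp3, Cybb and Lcp2), and 1 with 0 and 15 min together as baseline (Cybb at 1.30, adjusted p = 0.0439). Lower members in the late KO response numbered 0, or 1 (Lyz2, 10 counts over 4 libraries) with total counts, with 0 and 15 min as baseline, and in the range of 0 to 1 on leaving out 1 library each, where WT 45 min (adjusted p = 0.0330) and WT 60 min (adjusted p = 0.0172) gave 1. With total counts in place of TMM, 1 member was at least 2-fold higher and 3 lower in WT at 15 min, and 4 were lower at 45 min. That scale moves the median of all genes to -0.21 in the late WT response and to -0.17 in KO against WT. The causes were not tested.

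The genotype comparison blocks on time, which pairs KO and WT libraries of 1 time; the labels give no replicate numbers for any other pairing. Depth limits the KO values: most rest on fewer than 10 counts per library, so changes after TNF in KO, and differences between members there, cannot be resolved. With 1 library per time, TNF, time and handling cannot be told apart, nor can genotype and culture. Over all genes the calls in KO against WT depended on the tool, with 1025 higher and 1421 lower in edgeR, against 574 and 961 in DESeq2, 360 and 708 with no time term, and 411 to 975 and 734 to 1450 on leaving out 1 library each.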
